A study of Mus musculus with 6 samples.

Results

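The genes described here encode the proteins of the cytosolic ribosome, together with their close relatives in sequence or name, as measured in macrophages of mouse epididymal fat. They were chosen by name alone: annotated gene symbols that begin with Rpl or Rps and a digit, plus Rpsa and the stalk genes Rplp0, Rplp1 and Rplp2, without the Rps6k kinases and without symbols marked as pseudogenes. Of 30145 genes measured under 1 symbol, 45 met this rule, and each was represented by its transcript cluster (the group of array probes that stands for a gene or transcript) with the highest mean over all 6 arrays. They comprised 18 large-subunit genes, 15 small-subunit genes, 6 paralogs, 5 copies or pseudogenes that carry no pseudogene mark in the symbol, and Rps19bp1, which encodes a protein that binds Rps19 and is not a subunit. The mouse gene table of RefSeq lists 95 symbols of this kind, so the 45 are a part of the family, and Rplp1 and Rplp2 were not among the genes measured under 1 symbol.

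The macrophages were taken from male C57BL/6J mice, aged 22 weeks, by collagenase digestion of the fat and magnetic selection with a labelled antibody (clone BM8) against the product of Adgre1, a surface protein of mouse macrophages. The HFD group had received a high-fat diet (Research Diets D12492, 60% fat) and the NCD group normal chow (Envigo Teklad), each for 16 weeks from the age of 6 weeks. Each diet had 3 arrays, written HFD1 to HFD3 and NCD1 to NCD3, with pools of 10 mice in HFD and 20 mice in NCD. Pools and not single mice were compared, so p-values measure the spread between pools. The values are log2 expression as deposited, and a change is always HFD minus NCD. NCD1 stood apart from the other NCD arrays: over all 65956 transcript clusters it correlated more closely with HFD1 (Pearson r = 0.988) than with NCD3 (0.985). The endothelial score, the mean deviation of endothelial markers from their means, was -0.054, -1.450 and -1.508 log2 on HFD1 to HFD3, against -0.443, 1.461 and 1.995 on NCD1 to NCD3. In such bulk RNA, a lower share of a cell type and less RNA per cell cannot be told apart.

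Ribosomes translate messenger RNA. The small subunit reads the message, the large subunit joins amino acids, and each subunit is a fixed assembly of ribosomal RNA with many proteins, most of them present in a single copy. In mammals most ribosomal protein messages begin with a cytosine followed by a run of pyrimidines, the terminal oligopyrimidine (TOP) tract, through which the TOR complex 1 kinase and the RNA-binding protein Larp1 control how much of the message is translated. That control acts on translation, whereas an array measures the amount of message.

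Runs of pyrimidines were common around the starts of these genes. RefSeq promoters (GRCm38.p6, 250 bases before to 50 after an annotated start) matched 37 of the 45 genes, with 45 promoters. The longest unbroken run of C or T reaching within 50 bases of the start had a median of 10 bases, against 7 over all 32851 promoters in the table. A run of at least 8 bases was found in 32 of 45 (71.1%), against 37.8% of all promoters. The letters CCGGAA, on either strand, the core recognised by ETS-family transcription factors, were found in 20 of 45 (44.4%), against 14.9% of all promoters. The following lines give 30 bases around the longest run, in capitals, for the genes on which the results below turn. Where another run was equally long, as in Rps27l and Rps19bp1, the first was marked. They are 4 genes whose HFD arrays all lay above the NCD arrays, 2 small-subunit genes whose HFD arrays all lay below, and Rplp0 and Rpsa, whose arrays overlapped.
Rpl10a (chr17:28328577-28328606, plus strand): ctctgCCTTCTTTCCggtttccgcggcagc
Rps27l (chr9:66946059-66946088, plus strand): ctccaCTCCTCTCCactcctccccgccgcc
Rps19bp1 (chr15:80264333-80264362, minus strand): ctgagCTCCTgctccagtttctgccgagga
Rpl7l1 (chr17:46782664-46782693, minus strand): gcgggCCTCTCTaccccgcccggtgaggct
Rps7 (chr12:28635907-28635936, minus strand): ccccaCCTCTTTTCTTCCgccacccggata
Rps4x (chrX:102189342-102189371, minus strand): cgcgcagcctccgaccctaaTTTCTTCgtt
Rplp0 (chr5:115559473-115559502, plus strand): cctggTTCTCCTataaaaggcacacgcggg
Rpsa (chr9:120127706-120127735, plus strand): ggaagTTCTCCCTTTTTgcttagcctgctt
The run was 13 bases in Rps7, 12 in Rpsa, 10 in Rpl10a and 9 in Rps27l. It was 7 in Rpl7l1, Rps4x and Rplp0. Rps19bp1, the gene whose product is not a subunit, had the shortest of these, with 5 bases. Rpl10a and Rps7 are on opposite sides of the diet comparison, and both held a run of 10 or more bases and a CCGGAA. For Rpl10a and Rps27l, which have 2 promoters each, the one with the longer run was used. The other promoter had no CCGGAA in either gene, and its run was 7 bases in Rpl10a and 5 in Rps27l. The marked runs did not begin at the annotated start. Their first base lay at -55 to -22 relative to it in Rpsa, Rps19bp1, Rpl7l1 and Rps27l. In Rplp0, Rpl10a, Rps7 and Rps4x it lay at 11 to 40. Whether these runs are TOP tracts was not tested. An annotated start need not be the one used in these cells.

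Between the diets the differences in ribosomal protein genes were small. With limma's moderated test and Benjamini-Hochberg adjustment over all 30145 genes, 1 of the 45, Rpl10a, was called higher in HFD (adjusted p below 0.05), 0 were called lower, and 44 were not called. Over all genes tested, 7.83% were called, with 4.96% (1494) higher and 2.87% (865) lower. Centring each array on its median gave 2570 higher and 692 lower. At an unadjusted p below 0.05, 4 of the 45 (8.89%) were higher and 1 (2.22%) was lower, against 13.3% and 11.1% of all genes. The members' median change was -0.05 on the log2 scale against 0.01 over all genes. After that centring it was 0.04, against 0.10 over all genes, and without NCD1 it was -0.09, against 0.02 over all genes. Changes ran between -0.27 and 0.61, with 33 below 0 and 12 above.

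The members' changes were narrowly spread. Of the 45 genes, 38 (84.4%) had a change within 0.2 of 0 on the log2 scale, against 61.0% of all genes, while the median standard error was 0.12 in both. The 95% interval of the change lay inside plus or minus 0.5 in 36 genes and inside plus or minus 1 in all 45. Bright genes were called more often: 13.3% of the 2671 genes with a mean of at least 12 log2 were called, against 1 of the 21 members that bright (4.76%). Such bright genes as a whole had 40.6% of changes within 0.2 of 0, against 85.7% of these members.

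**Figure D1:**
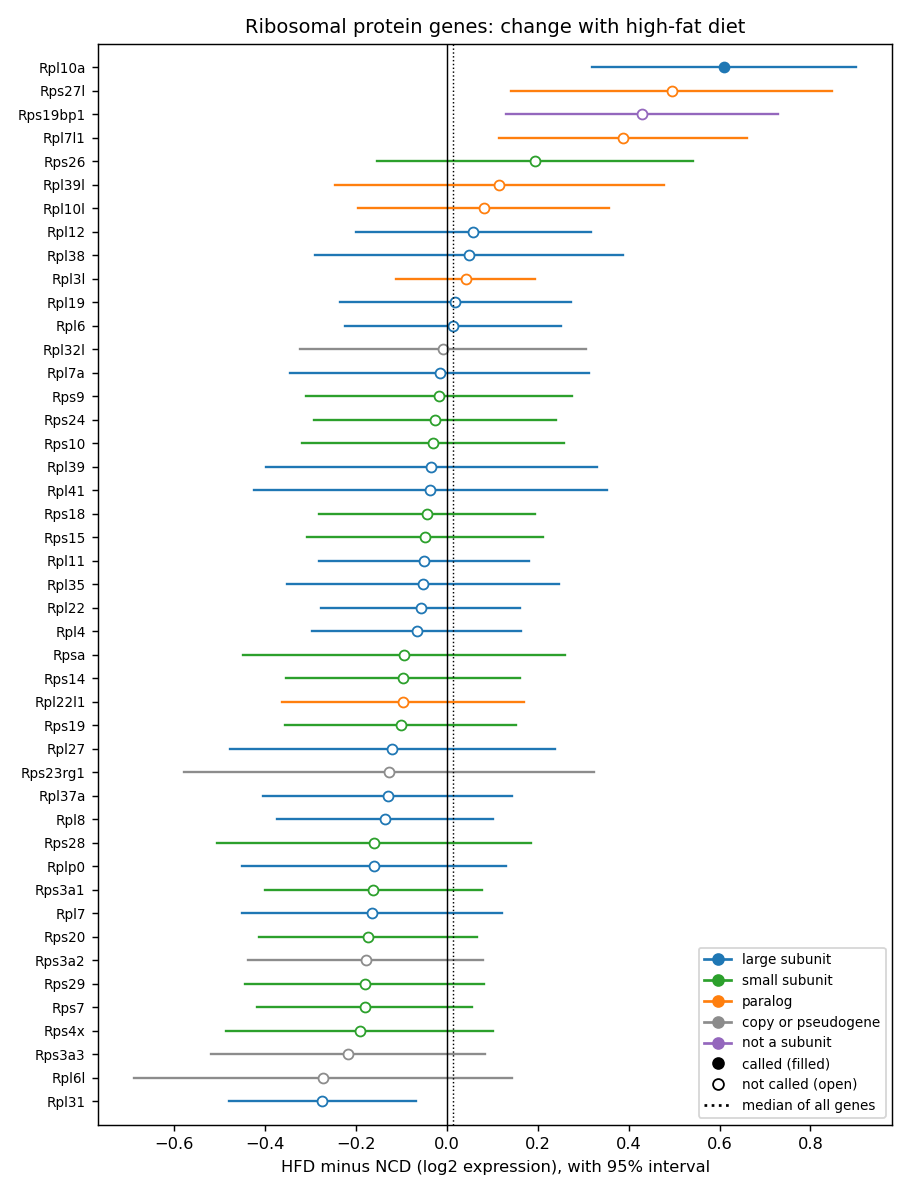
Change of each of the 45 genes, HFD minus NCD in log2 expression, with its 95% interval from limma (3 arrays a diet), coloured by class and ordered by size. Rpl10a is the only filled (called) point, 38 of 45 points lie within 0.2 of 0, and the dotted line is the median of all genes (0.01).

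Among the large-subunit genes, Rpl10a stood apart from the rest. It encodes a protein of the mobile L1 stalk, which helps spent transfer RNA leave the ribosome. Rpl10a had 12.72, 12.96 and 12.91 log2 in HFD1 to HFD3, against 12.30, 12.33 and 12.13 in NCD1 to NCD3. All HFD arrays lay above all NCD arrays, by more than the spread within either diet (12.86 ± 0.13 in HFD and 12.25 ± 0.11 in NCD, SD, n = 3 each). The change was 0.61 ± 0.12 (SE; 95% interval 0.32 to 0.90), or 1.53-fold, with limma's adjusted p = 0.034. In this list it was the largest change, whereas 1592 of all genes, counting Rpl10a itself, had an upward change at least as large.

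That call was close to the threshold. The adjusted p for Rpl10a was 0.026 without NCD1, but 0.070 without HFD1, 0.159 without HFD2, 0.147 without HFD3, 0.084 without NCD2 and 0.064 without NCD3 (limma, each time over all genes). The change itself stayed between 0.55 and 0.68 in these fits. Endothelial markers differed across the same arrays: the 15 measured of 16 had changes below 0, with a median of -1.92 and 1 called lower, none was below background, and their summed level was 15.6 to 17.0 log2 in HFD against 16.4 to 18.7 in NCD. With the endothelial score of each array as a covariate, the change of Rpl10a was 0.45 and limma's adjusted p = 0.278. Cell-cycle genes were higher in HFD (28 of 29 called, median change 1.66, summed level 15.7 to 16.3 log2 in HFD against 13.9 to 14.6 in NCD), and their part in the value of Rpl10a was not tested.

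The other 17 large-subunit genes had changes of -0.27 to 0.06, and none was called. Rpl31, a protein beside the exit of the peptide tunnel, had 7.92, 7.93 and 7.90 log2 in HFD against 8.17, 8.26 and 8.15 in NCD. The arrays of the diets did not overlap, and the change was -0.27 ± 0.09 (SE; 95% interval -0.48 to -0.07; limma's adjusted p = 0.110). The probe set used for Rpl31 bears an identifier of chromosome 7, whereas RefSeq places the gene on chromosome 1, so the locus it measures is uncertain. Rpl8, which lies at the catalytic centre, and Rpl22, an RNA-binding protein outside the core of the subunit, were also lower on every HFD array than on any NCD array, with changes of only -0.14 and -0.06.

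Apart from Rpl31, the exit tunnel and surface proteins named here gave values near 0. Rpl4, which lines the peptide tunnel, had a change of -0.07 (95% interval -0.30 to 0.16). Rpl12, at the base of the stalk, had a change of 0.06 (-0.20 to 0.32) and Rpl38, known in mouse for its part in translating Hox messages, one of 0.05 (-0.29 to 0.39). Rpl11, which can bind and inhibit Mdm2 when ribosome assembly is disturbed, had a change of -0.05 (-0.28 to 0.18). For these genes the intervals leave room for changes of up to 0.39 in size. The remaining Rpl6, Rpl7a, Rpl27, Rpl35, Rpl37a, Rpl39 and Rpl41, structural proteins of the large subunit, had changes of -0.13 to 0.01, and the diets overlapped in each.

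Rplp0 encodes the protein that anchors the acidic stalk, where elongation factors bind, and its message is a common reference in quantitative PCR. It had 12.69, 12.69 and 12.81 log2 in HFD against 12.94, 13.01 and 12.72 in NCD. The diets overlapped through NCD3, and the change was -0.16 ± 0.12 (SE; 95% interval -0.45 to 0.13; limma's adjusted p = 0.490). Of other ribosomal protein genes in similar use, Rpl19 had a change of 0.02 (95% interval -0.24 to 0.27) and Rps18 one of -0.04 (-0.28 to 0.20).

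**Figure D2:**
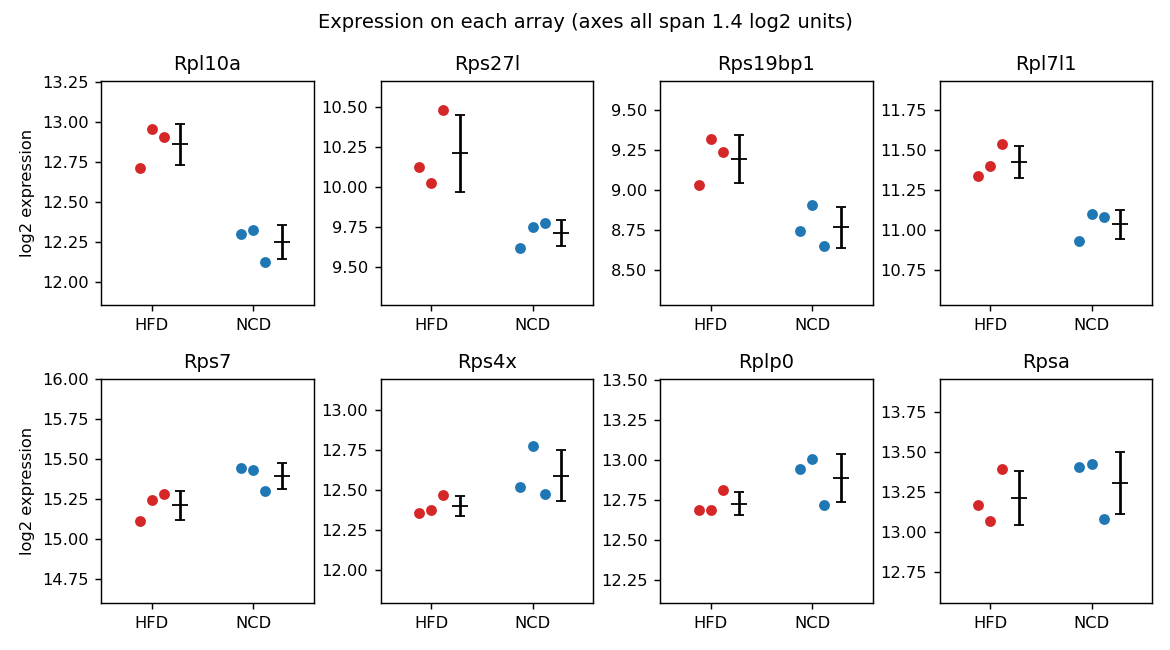
Log2 expression of 8 genes on each array, HFD (red) left and NCD (blue) right, with the mean and SD of each diet as bars, and every axis spanning the same 1.4 log2 units. The upper genes have all HFD points above all NCD points, Rps7 and Rps4x have them all below, and Rplp0 and Rpsa overlap.

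The small-subunit genes lay slightly below 0 as a group, and none of the 15 was called. Their median change was -0.10, with 14 of 15 below 0. Rps26 was the exception, with a change of 0.19 (95% interval -0.15 to 0.54); its product sits where the message leaves the subunit. All 15 changes were within 0.2 of 0. After centring each array on its median, every change was higher by the same 0.09, so the sign of changes this small depends on the scaling. Of all 45 members, 13 had the other sign after that centring and 4 after quantile normalization, which left the members' median change at -0.06. The limma test called 0 of the 15 at an unadjusted p below 0.05.

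Rps7, which contacts ribosomal RNA in the small subunit and can bind Mdm2, had 15.11, 15.24 and 15.28 log2 in HFD against 15.44, 15.43 and 15.30 in NCD. The HFD arrays all lay below the NCD arrays, with HFD3 and NCD3 almost level. The change was -0.18 ± 0.10 (SE; 95% interval -0.42 to 0.06; limma's adjusted p = 0.329). Rps4x, the X-linked gene of this subunit, had 12.35, 12.37 and 12.47 log2 in HFD against 12.52, 12.77 and 12.48 in NCD. Again the diets did not overlap, by the margin between HFD3 and NCD3 alone, and the change was -0.19 ± 0.12 (SE; limma's adjusted p = 0.408).

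Rps20, Rps29 and Rps3a1 were likewise lower on every HFD array than on any NCD array, with changes of -0.17, -0.18 and -0.16. Rpsa, a small-subunit protein also known as a laminin receptor, had 13.17, 13.07 and 13.39 log2 in HFD against 13.41, 13.42 and 13.08 in NCD. HFD3 and NCD3 each lay with the arrays of the other diet, and the change was -0.09 ± 0.15 (SE; 95% interval -0.45 to 0.26). Rps19, whose human counterpart is mutated in Diamond-Blackfan anaemia, had a change of -0.10 (-0.36 to 0.15). Rps14, reduced in a human myelodysplastic syndrome, likewise had one of -0.10 (-0.35 to 0.16). The remaining Rps9, Rps10, Rps15, Rps24 and Rps28 had changes of -0.16 to -0.02, and the diets overlapped in each.

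Without Rpl10a, the other subunit genes of both classes had changes of -0.27 to 0.19, and no interval among them reached below -0.51 or above 0.54. Complete separation of the arrays was found in 12 of the 45 members. In 4 of them (8.89%) all HFD arrays lay above, against 17.6% of all genes, and in 8 (17.8%) all lay below, against 13.0% of all genes. The 8 were the subunit genes Rpl8, Rpl22, Rpl31, Rps3a1, Rps4x, Rps7, Rps20 and Rps29. In the other 33 the diets overlapped.

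Of the 4 genes with all HFD arrays above, 3 were relatives and not standard subunits. Rps27l, a paralog of Rps27 that p53 can induce, had 10.12, 10.02 and 10.48 log2 in HFD against 9.62, 9.75 and 9.77 in NCD. The HFD values were spread more widely (SD 0.24) than the NCD values (SD 0.08), with HFD3 the highest. The change was 0.50 ± 0.15 (SE; 95% interval 0.14 to 0.85), which limma did not call (adjusted p = 0.097).

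Rpl7l1 encodes a relative of Rpl7 that is found in the nucleolus, where ribosomes are assembled. It had 11.34, 11.40 and 11.53 log2 in HFD against 10.93, 11.10 and 11.08 in NCD. The HFD arrays lay above the NCD arrays with a gap of more than 0.2, and the change was 0.39 ± 0.11 (SE; 95% interval 0.12 to 0.66; limma's adjusted p = 0.094). Rpl7 itself had a change of -0.16 (-0.45 to 0.12).

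Rps19bp1, which binds Rps19 and the deacetylase Sirt1, had 9.03, 9.32 and 9.24 log2 in HFD against 8.74, 8.90 and 8.65 in NCD. HFD1 was close to NCD2, and no HFD array lay below an NCD array. The change was 0.43 ± 0.13 (SE; 95% interval 0.13 to 0.73; limma's adjusted p = 0.091). After median centring, Rps19bp1 (change 0.52, adjusted p = 0.042) and Rpl7l1 (change 0.48, adjusted p = 0.047) were called by limma as well, together with Rpl10a.

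The other paralogs gave small values. Rpl22l1, a paralog of Rpl22 that can stand in for it, had a change of -0.10 (95% interval -0.36 to 0.17). Rpl3l, Rpl10l and Rpl39l, which in mice and humans are used mainly in muscle (Rpl3l) or testis (Rpl10l and Rpl39l), had means below the background level of 6.23 log2. That level is the mean over arrays of the 95th percentile of 23 probe sets with no target in the genome. These 3 were the only members below it, whereas 47.8% of all genes were.

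The 5 copies were Rps3a2, Rps3a3, Rpl6l, Rpl32l and Rps23rg1, a retroposed copy of Rps23. Their changes were -0.27 to -0.01 and none was called. Rps3a2 and Rps3a3 resemble Rps3a1 closely enough that probes may not tell them apart, and their changes of -0.18 and -0.22 stood beside -0.16 for Rps3a1. The interval of Rpl6l reached lowest in the list (change -0.27, 95% interval -0.69 to 0.14), while Rpl6 had a change of 0.01. Values of such copies are uncertain in identity.

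The ribosomal protein family has many processed pseudogenes, and the array carries probe sets for them. Besides 51 probe sets of the 45 genes, 202 had a pseudogene symbol of the family and 59 carried several symbols of which at least 1 was a ribosomal protein. The 202 had a median change of -0.13, and limma called 1 lower and 0 higher (at an unadjusted p below 0.05, 28 (13.9%) were lower and 2 (0.990%) higher, against 10.9% and 13.0% of all annotated probe sets). That 1 was Rpl9-ps1, with 9.54, 9.55 and 9.79 log2 in HFD against 10.23, 10.41 and 10.09 in NCD, a change of -0.62 ± 0.13 (SE; limma's adjusted p = 0.044), and without 1 array its call was kept only when NCD1 or NCD3 was left out (changes of -0.70 to -0.53). The 59 with several symbols had a median change of -0.10, with 0 called by limma and 1 higher and 4 lower at an unadjusted p below 0.05. Over all 312 probe sets, 2 (0.641%) were called, against 7.35% of all annotated probe sets.

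The probe sets of 5 members, Rpl12, Rpl27, Rpl31, Rpl35 and Rpl41, bear an identifier of another chromosome than the gene's in RefSeq. In general the identifier and RefSeq named the same chromosome in 98.8% of 22928 matched clusters. With only probe sets of the gene's own chromosome, 43 members were left, Rpl10a was the 1 called, and the median change was -0.06. More than 1 probe set was available for 5 members, Rpl7a, Rpl27, Rpl35, Rpl41 and Rps26, and within each of them the change had the same sign in every probe set. In Rpl7a (-0.016 and -0.004) and Rpl35 (-0.053 and -0.006) the standard errors were 0.12 to 0.14, so the shared sign says little. The dimmest Rps26 probe set had a mean of 5.19 log2, below background.

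Array by array, the members did not sort by diet. The median deviation of the 45 genes from their own means was -0.09, -0.02 and 0.01 log2 on HFD1 to HFD3, against 0.03, 0.13 and -0.07 on NCD1 to NCD3. NCD2 was the highest and HFD1 the lowest, and NCD3 lay among the HFD arrays. The spread within a diet was smaller in HFD: the median SD of the 45 genes was 0.08 log2 in HFD against 0.14 in NCD, where all genes had 0.11 in HFD and 0.15 in NCD. The median depended on NCD2: without it the members' median change was -0.01 and 11 of the 45 genes had the other sign.

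**Figure D3:**
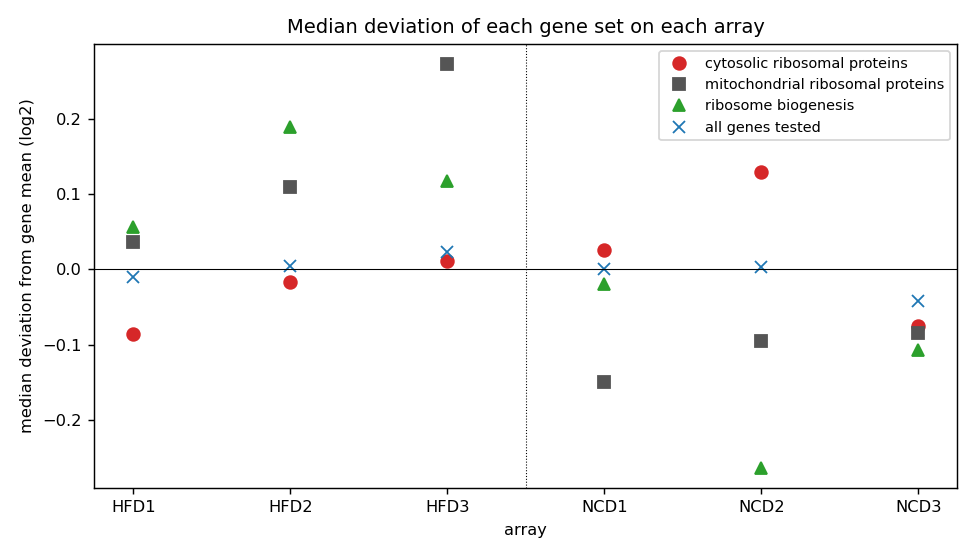
Median deviation, in log2, of each gene set from its genes' means over all 6 arrays, with HFD arrays left of the dotted line and NCD arrays right. The 45 cytosolic ribosomal protein genes (red circles) range between -0.09 and 0.13 with the diets overlapping, while mitochondrial ribosomal proteins (squares) and ribosome biogenesis genes (triangles) are above 0 on all HFD arrays and below 0 on all NCD arrays.

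Mitochondria have ribosomes of their own, built from a separate set of nuclear genes, and they had higher changes by value. Of 75 mitochondrial ribosomal protein genes, 5 (6.67%) were called higher and 0 lower by limma, against 4.96% and 2.87% of all genes. At an unadjusted p below 0.05, 31 (41.3%) were higher and 0 lower, against 13.3% and 11.1% of all genes. Their median change was 0.25 against -0.05 in the cytosolic set. All HFD arrays lay above all NCD arrays in 48 of the 75 (64.0%), against 4 of the 45 cytosolic genes (8.89%) and 17.6% of all genes. Mrpl19, of the large mitochondrial subunit, had the largest change, 0.93 ± 0.12 (SE), which was 0.71 with the endothelial covariate (limma's adjusted p = 0.074). The count of called mitochondrial genes was 0 without HFD2, HFD3 or NCD2, 1 without NCD3, 2 without HFD1, 6 without NCD1, 0 with the endothelial covariate and 19 after median centring. The difference between the sets was not tested, because genes of a set are not independent replicates.

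The genes that assemble ribosomes also had a higher median change than the ribosomal proteins themselves. Of 98 ribosome biogenesis genes listed, 88 were measured, with a median change of 0.25. All HFD arrays lay above in 41 (46.6%), against 17.6% of all genes. By limma 1 (1.14%) was called higher, against 4.96% of all genes, and 0 were called lower, against 2.87%. The 1 was Nhp2, a protein of the RNPs that modify ribosomal RNA (0.60 ± 0.13, SE, with limma's adjusted p = 0.044). At an unadjusted p below 0.05, 29 (33.0%) were higher and 0 lower, against 13.3% and 11.1% of all genes. With the endothelial covariate the Nhp2 change was 0.32 (limma's adjusted p = 0.368). The count called was 20 without NCD1, 13 after median centring and 0 without any 1 of the other arrays. The 13 maturation factors measured of 16 had a median change of 0.25 with 0 called (6 higher and 0 lower at an unadjusted p below 0.05). For RNA polymerase I, which transcribes ribosomal RNA, 18 of 23 genes were measured, 0 were called (1 higher, 0 lower unadjusted) and the median change was 0.08.

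**Figure D4:**
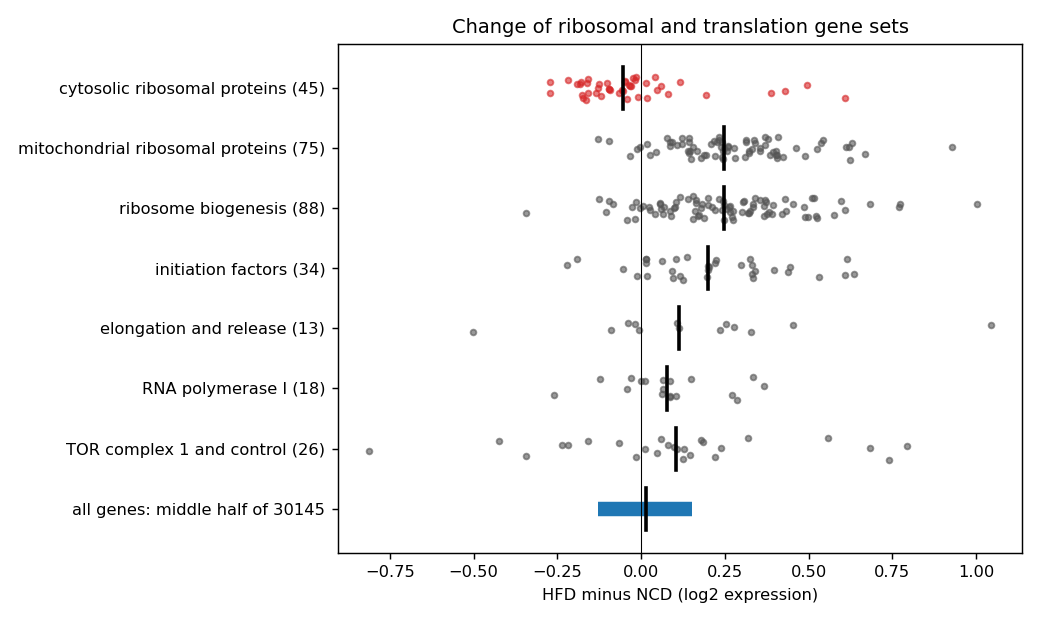
Change of each gene, HFD minus NCD in log2 expression, in the cytosolic ribosomal proteins and related sets (numbers of genes in brackets), with the median of each set as a black bar and, at the bottom, the middle 50% of all genes as a band from -0.13 to 0.15. The cytosolic ribosomal proteins are packed around -0.05, and the mitochondrial ribosomal proteins and biogenesis genes have medians of 0.25.

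Factors that work on the ribosome had median changes between those of these sets. Of 41 initiation factors 34 were measured, with a median change of 0.20. All HFD arrays lay above in 15 (44.1%), against 17.6% of all genes. Limma called 1 (2.94%) higher, against 4.96% of all genes, and 0 lower. It was Mcts1, which helps re-initiation (0.61 ± 0.14, SE, with limma's adjusted p = 0.044). At an unadjusted p below 0.05, 11 were higher and 0 lower, against 13.3% and 11.1% of all genes. Of 14 elongation and release factors 13 were measured, with a median change of 0.11. Limma called 1 of these (7.69%), against 7.83% of all genes, and 2 were higher and 1 lower at an unadjusted p below 0.05. Their 1 call was Eef2k, the kinase that inhibits the elongation factor Eef2, which was lower (-0.50 ± 0.11, SE; limma's adjusted p = 0.046), and Eef2 itself had a change of -0.02 (95% interval -0.22 to 0.18). The calls of Mcts1 (0.52 to 0.70 without 1 array) and Eef2k (-0.59 to -0.45) were kept only without NCD1. With the endothelial covariate neither was called (0.41, adjusted p = 0.354 for Mcts1 and -0.36, adjusted p = 0.345 for Eef2k, by limma). Other messages known to carry a TOP tract, 18 of 22 measured, had a median change of 0.06 with 0 called by limma (3 higher and 0 lower at an unadjusted p below 0.05). Among them Eef1a1 had a change of -0.09 (-0.27 to 0.08). Fau, which encodes a small-subunit protein fused to a ubiquitin-like protein and falls outside the name rule, had a change of -0.13 (-0.47 to 0.21).

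The messages of the TOR complex 1 pathway that controls TOP translation were measured for 26 of 29 listed genes. Limma called 2 higher and 1 lower (11.5%), against 7.83% of all genes and 13.3% of genes at or above background. At an unadjusted p below 0.05, 4 were higher and 3 lower, against 13.3% and 11.1% of all genes. Rptor, the subunit that recruits substrates to the complex, was higher: 9.588, 9.913 and 9.875 log2 in HFD against 9.004, 8.994 and 8.997 in NCD, a change of 0.79 ± 0.12 (SE; limma's adjusted p = 0.016). Tsc1, part of the complex that restrains the kinase, was higher as well (0.56 ± 0.10, SE; limma's adjusted p = 0.026). Pdcd4, an inhibitor of initiation that the pathway marks for degradation, was lower (-0.81 ± 0.17, SE; limma's adjusted p = 0.038). The other 23 were not called, among them Mtor at 0.01 (95% interval -0.33 to 0.36), Larp1 at 0.22 (-0.09 to 0.53), Eif4ebp1 at 0.05 (-0.26 to 0.35) and the ribosome biogenesis activator Myc at -0.07 (-0.72 to 0.59). Without 1 array the Rptor change was 0.73 to 0.90, and its call was lost without HFD2, HFD3 or NCD2. The Tsc1 change was then 0.51 to 0.61 and the Pdcd4 change -0.92 to -0.68, with both calls kept only without NCD1. With the endothelial covariate none of the 3 was called (limma's adjusted p of 0.130 to 0.219), with changes of 0.66 for Rptor, 0.43 for Tsc1 and -0.98 for Pdcd4.

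Of 19 stress sensors and effectors linked to stalled or unbalanced ribosomes 13 were measured, with a median change of 0.06 and 0 called by limma (3 higher and 0 lower at an unadjusted p below 0.05). Only 3 of 17 host genes of small nucleolar RNAs were measured, with a median change of -0.09 and 0 called (1 higher, 0 lower unadjusted).

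Pearson correlations between arrays over all 65956 transcript clusters were 0.9947 to 0.9952 within HFD, 0.985 to 0.993 within NCD and 0.976 to 0.988 between diets. Of 10 macrophage markers listed 9 were measured, and none was below background. Their median change was 0.06 (-0.49 to 1.43), with Fcgr1 (1.43) and Cd68 (1.20) called higher by limma and Mertk (-0.49) called lower. Adgre1, the selection antigen, had a change of 0.91 ± 0.27 (SE; limma's adjusted p = 0.092). Markers of some other cells differed between the diets. Limma called 9 of 16 smooth muscle and 10 of 10 mesothelial markers lower, against 2.87% of all genes. It called 7 of 12 fibroblast markers higher, against 4.96% of all genes, and 1 lower. Of 13 T and natural killer cell markers limma called 1 higher and 0 lower (median change -0.17). It called 0 of 8 B cell, 0 of 12 neutrophil and 0 of 9 adipocyte markers, with median changes of -0.54, -0.08 and -0.65. Means were below background for 6 of the mesothelial markers, 1 smooth muscle marker and 1 fibroblast marker. The same held for 8 T and natural killer cell markers and 5 neutrophil markers. The part of other cells in the small ribosomal protein changes was not tested.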

How the data were processed

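Total RNA (100 ng a pool) was labelled with the WT PLUS kit for 1 Affymetrix array a pool, per the labels' protocols. The deposited values are log2 expression per transcript cluster. RMA, Transcriptome Analysis Console 3.1.0.5 and Affymetrix Expression Console 1.4.1.46 are listed, with no role or order, in the submitters' processing notes. Options and genome build are not given in the sources used here. Arrays processed with RMA are put on a common scale, so a shift shared by most genes would not be seen. No normalization was added. Of 65956 clusters, 30604 had 1 symbol, and 1 cluster a gene (highest mean over 6 arrays) gave 30145 genes, dim genes kept. Diets were compared with limma 3.58.1 in R 4.3.3 (lmFit, eBayes with trend, Benjamini-Hochberg over all genes, adjusted p below 0.05). The test was run on 10 simulated data sets of 30145 genes, with 200 changed genes and independent normal noise. There 81.0% of 2-fold and 96.5% of 4-fold changes were recovered, with a mean of 10.9 false calls a data set. The 200 changed genes were far fewer than the 2359 called in the data. Changes below 2-fold, the size of all members' changes, and deviations shared by many genes of an array were not simulated. On arrays the number of arrays limits precision. Several sets, probe-set rules and scalings were tried as alternatives. All members with a symbol that met the rule were named or counted; in other lists, genes called and fixed reference genes were named. The members and lists were chosen with earlier results of these data known. The alternatives with probe sets of the gene's own chromosome and with subunit genes alone were chosen after seeing the data. Replicate numbers were not used to pair the arrays in the reported test.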

Additional observations from a re-analysis of the deposited data

How the results depend on the processing

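The count of ribosomal protein genes called higher was 1 in the reported test and 0 to 1 when 1 array was left out, with the 1 found only without NCD1. It was 0 with the endothelial score as a covariate and 3 after median centring, which also gave a median change of 0.037 where all genes had 0.10, since centring shifted every gene by the same 0.09. Leaving out 1 array gave median changes of -0.11 to -0.01. Relative to the median of all genes, the members' median was -0.07, and it was -0.03 without NCD2 and -0.11 without NCD1 or NCD3. No setting called a member lower. Quantile normalization, dropping dim genes, dropping the trend, array weights, averaging probe sets, leaving out paralogs, updated symbols, own-chromosome probe sets and subunit genes alone each left 1 called higher. With the replicate number as a block, 0 members and 144 of all genes were called. Deviations from the diet mean had correlations of -0.46, -0.12 and -0.15 between same-numbered arrays. Between arrays of unlike number they were -0.30 to 0.40. With 3 arrays a diet these correlations constrain each other, so they cannot show whether same-numbered arrays were prepared together. Over all genes the 2359 calls became 4711 without NCD1, 1790 without NCD3, 1018 without HFD1, 474 without NCD2, 456 without HFD3 and 442 without HFD2. They became 4280 with array weights and 563 with the covariate. With 3 arrays a diet, intervals inside plus or minus 0.5 were reached in 36 of 45 members, so smaller changes may have gone uncalled.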
